A study of Mus musculus with 8 samples.

Results

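The Nduf genes encode most nuclear subunits of mitochondrial complex I and its named assembly factors, and they were described here in EDL, the extensor digitorum longus, which is built mainly of fast-twitch fibres. Members were all genes of the deposited array table whose platform symbol begins with Nduf: 34 genes on 40 probes, out of 7053 named genes on 9232 probes. They fall by subunit letter into 12 genes of group a, 9 of group b, 2 of group c, 4 of group s, 2 of group v and 5 assembly factors (group af). Muscle of Sod1 knockout mice (KO, titled sod-/- in the labels) was set against muscle of wild-type mice (WT), with 4 arrays per genotype and all mice aged 7 months. Sod1 encodes the copper-zinc superoxide dismutase, and the series asks how muscle transcription responds to lasting oxidative stress. The labels used here name no strain or sex and do not state that each array had its own animal, so the p-values speak of spread among arrays, which may be technical. The knockout was not checked against the targeted gene here.

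Complex I is the first enzyme of the respiratory chain. It takes electrons from NADH at the tip of a matrix arm, passes them along iron-sulfur clusters to ubiquinone, and pumps protons through a long membrane arm. Several membrane proteins come from mitochondrial DNA, while the catalytic subunits of the matrix arm and a large set of accessory subunits come from nuclear genes. Assembly factors build the modules and join them without staying in the enzyme. Complex I is also a known site of superoxide production, on the matrix side, where the manganese enzyme Sod2 rather than Sod1 is the resident dismutase.

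Values are the authors' log2 intensities, which run from 3.21 to 14.19 with a median of 6.93 on every array because the columns were quantile normalized. A probe entered the test if it lay above the median of its array in at least 4 of the 8 arrays. This held for 4698 probes, and for 36 Nduf probes standing for 31 genes, all of them above the median in all 8 arrays. Ndufb11, Ndufc2 and Ndufaf7 fell below the filter. Where a gene had several probes, the probe of highest mean stood for it. The fast fibre markers expected of EDL were bright, with 10 of 11 measured and list means from 13.68 to 13.77 in KO arrays and from 13.58 to 13.67 in WT arrays. The slow fibre markers stood lower, from 7.65 to 7.97 in KO and from 7.31 to 7.70 in WT over 7 genes. In bulk muscle, fewer cells of a type and less RNA per cell cannot be told apart.

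No Nduf gene differed between KO and WT past the threshold. With limma and Benjamini-Hochberg adjustment over all tested probes, 0 of 36 Nduf probes had an adjusted p under 0.05, against a background of 0 percent of the 4698 probes. The smallest adjusted p among them was 0.53, for Ndufa8. At an unadjusted p under 0.05 there were 0 Nduf probes, beside 9.34 percent of all tested probes. That count depended on the setting of the fit. With a trend in eBayes the unadjusted limma p of Ndufa8 was 0.038. With array weights that of Ndufb4 was 0.036 and that of Ndufaf1 0.039. The share of all probes in those fits is not given here. The genotypes did not overlap at 1 of the 36 Nduf probes, against 4.60 percent of all tested probes (1.87 percent higher and 2.72 percent lower in KO). Of the 31 tested genes 11 had a higher mean in KO and 20 a lower one, and a higher mean was found for 43.9 percent of all 3822 tested genes. The median difference, KO minus WT, was -0.06 log2 units over the 31 genes and -0.04 over all tested genes.

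The intervals show which sizes of difference these arrays leave possible. Single differences ran from -0.37 for Ndufb4 to 0.38 for Ndufaf1 on the log2 scale. For 19 of the 36 probes the 95% interval of the difference lay within 0.5 log2 units of 0, a 1.41-fold change either way, as it did for 22.5 percent of all tested probes. For 34 of 36 it lay within 1 log2 unit, beside 80.7 percent of all tested probes. Both probes of Ndufaf5 were the exceptions, with intervals reaching -1.02 and -1.01. Among the 19, Ndufa1, Ndufa4, Ndufb8 and the brighter probe of Ndufa5 had means above 13. There a difference may come out too small, so their narrow intervals do not bound it.

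**Figure D1:**
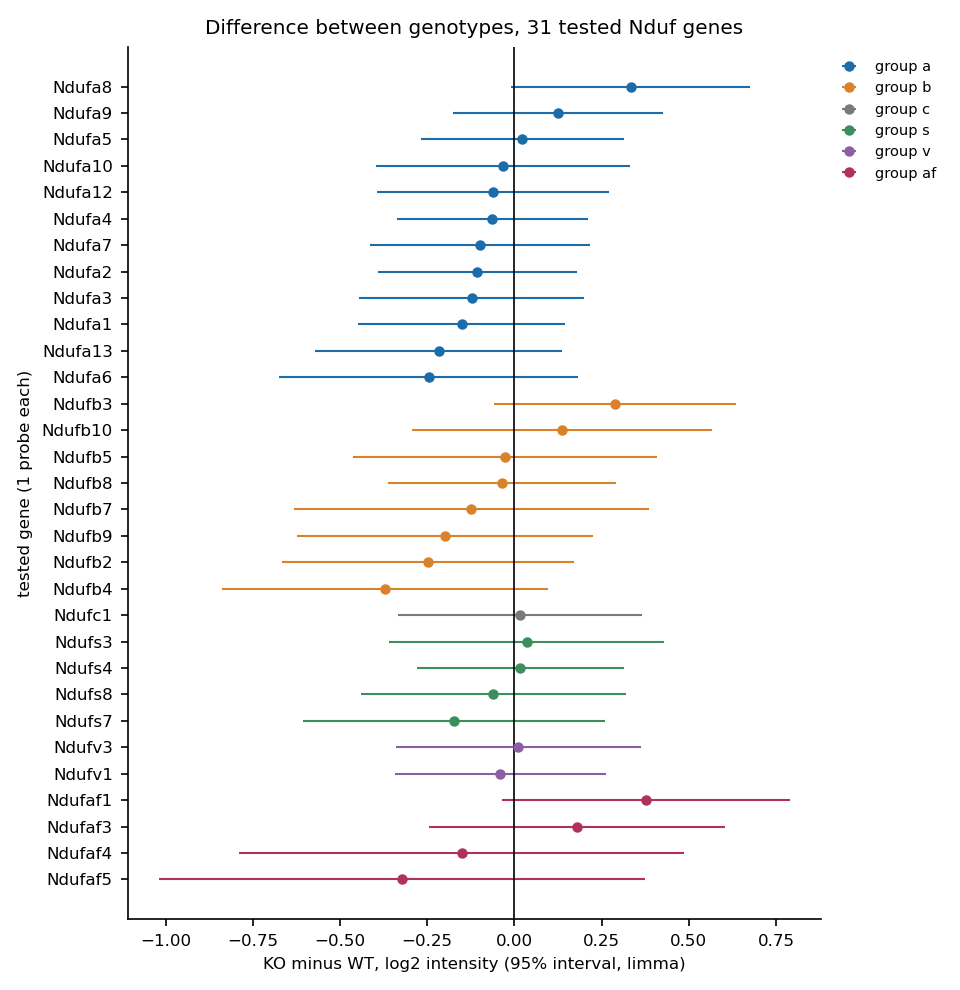
Difference between genotypes (KO minus WT, log2 intensity, x axis) for the 31 tested Nduf genes, 1 probe each, grouped by subunit letter (y axis), with points for the estimate and bars for the 95% interval of the limma fit (n = 4 arrays per genotype). Every interval includes 0; Ndufa8 at 0.33, Ndufb3 at 0.29 and Ndufaf1 at 0.38 lie farthest to the right, and Ndufb4 at -0.37 farthest to the left.

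The genes of smallest p in groups a, b and af can be set beside their RefSeq promoters, which were searched for motifs of factors known to drive nuclear genes of the respiratory chain. The bases just before the start are shown for Ndufa8, Ndufb3 and Ndufaf1, with higher means in KO, and for Ndufb4, with a lower one, so that genes of opposite direction can be compared. Each run is the 120 bases that end at the base before the start site, 5′ to 3′ on the gene's strand, in build GRCm38.p6. Capitals mark letters that match GCGCANGCG, a core of the NRF1 motif, or CCGGAAG, an ETS motif bound by GABP, on either strand.
Ndufa8, chr2:36049339-36049458, minus strand: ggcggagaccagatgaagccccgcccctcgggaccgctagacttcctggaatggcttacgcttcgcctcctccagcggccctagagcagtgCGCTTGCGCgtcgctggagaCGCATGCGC
Ndufb4, chr16:37654369-37654488, minus strand: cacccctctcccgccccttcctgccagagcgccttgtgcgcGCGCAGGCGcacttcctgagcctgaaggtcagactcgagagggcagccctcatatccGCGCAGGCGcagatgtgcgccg
Ndufaf1, chr2:119662835-119662954, minus strand: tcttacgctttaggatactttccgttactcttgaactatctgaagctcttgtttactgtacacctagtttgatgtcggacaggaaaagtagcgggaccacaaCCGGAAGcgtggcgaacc
Ndufb3, chr1:58586277-58586396, plus strand: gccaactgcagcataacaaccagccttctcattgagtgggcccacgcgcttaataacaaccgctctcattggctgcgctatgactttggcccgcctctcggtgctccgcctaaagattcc

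Ndufa8 and Ndufb4 each held 2 NRF1 cores in this stretch, although their differences had opposite signs, and Ndufb3 held no searched motif. Over the whole promoter entry, 250 bases before to 50 after the start, 32 of the 34 genes had a sequence. The NRF1 core was found in 7 of them (21.9 percent), beside 7.03 percent of all 27025 genes with an entry and 34.5 percent of the 29 matched genes of complexes II to V. The ETS motif was found in 4 (12.5 percent), beside 9.93 percent of all genes and 37.9 percent of complexes II to V. AAGATGGC, the YY1 motif, was found in 6 (18.8 percent), beside 3.19 and 10.3 percent. TCAAGGTCA, the ERR motif, was found in 0, beside 0.466 and 6.9 percent. None of these motifs contains another, and NRF1 matches on opposite strands can overlap. An NRF1 core or ETS motif was present in 34.4 percent of the 32, beside 15.5 percent of all genes and 55.2 percent of complexes II to V. Among tested genes, 5 of 11 with a higher mean in KO had such a motif, and 6 of 18 with a lower one. These are matches of letters, and binding was not measured.

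Group a holds accessory subunits spread over both arms of the enzyme. Its mean difference was -0.05, within the SD between arrays of 0.09 in KO and 0.08 in WT. Of its 12 tested genes 3 had a higher mean in KO and 9 a lower one, with differences from -0.25 to 0.33 and a median of -0.08 log2 units. Ndufa8, an accessory subunit of the membrane arm that faces the intermembrane space, had 11.62, 11.36, 11.67 and 11.35 in KO replicates 1 to 4, against 11.31, 10.92, 11.23 and 11.22 in WT replicates 1 to 4. All 4 KO values lay above all 4 WT values, with a margin narrower than the spread in either genotype. The means were 11.50 ± 0.17 in KO and 11.17 ± 0.17 in WT (SD, n = 4 each), a difference of 0.33 (SE 0.15, 1.26-fold), with a limma adjusted p of 0.53. Ndufa13, also known as GRIM-19 and placed where the membrane arm meets the matrix arm, had 13.72, 13.54, 13.72 and 13.75 in KO, against 13.99, 13.56, 13.94 and 14.11 in WT. The WT array at 13.56 lay among the KO values, so the genotypes overlapped, and the difference was -0.22 (adjusted p 0.67). Ndufa13, Ndufa1, Ndufa4 and Ndufa5 had means above 13, close to the highest value the table holds, and a difference there may come out too small. Ndufa6, a matrix-arm subunit that binds the mitochondrial acyl carrier protein, differed by -0.25 with overlapping values. Ndufa9, which sits beside the quinone site, differed by 0.12. Ndufa4, now counted as a subunit of complex IV, stood at 13.86 ± 0.05 in KO and 13.92 ± 0.04 in WT (SD, n = 4 each). The other 6 genes, Ndufa1, Ndufa2, Ndufa3, Ndufa7, Ndufa10 and Ndufa12, differed by between -0.15 and -0.03, and Ndufa5 by 0.02.

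Group b, the accessory subunits of the distal membrane arm, held the member of lowest difference and 1 of the highest. Among its 8 tested genes 2 had a higher mean in KO and 6 a lower one, with a median of -0.08. Ndufb3 had 11.66, 11.41, 11.91 and 11.71 in KO, against 11.36, 11.25, 11.57 and 11.34 in WT. KO replicate 2 lay below WT replicate 3, so the genotypes overlapped, and the means were 11.67 ± 0.21 in KO and 11.38 ± 0.14 in WT (SD, n = 4 each). The difference of 0.29 (SE 0.15, 1.22-fold) had a limma adjusted p of 0.57. Ndufb4 went the other way, with 9.80, 9.64, 9.86 and 9.36 in KO, against 10.35, 9.58, 9.92 and 10.30 in WT. WT replicate 2 lay below 3 of the KO values, and the other 3 WT arrays lay above all of them. Its difference was -0.37 (SE 0.21, adjusted p 0.59), and it became -0.53 without WT replicate 2 (adjusted p 0.46). Ndufb2 differed by -0.25, with KO values between 8.57 and 8.73 and WT values between 8.47 and 9.20, so WT was the more scattered genotype. Ndufb9, a LYR-motif subunit that binds the acyl carrier protein, differed by -0.20, Ndufb10 by 0.14 and Ndufb7 by -0.12. Ndufb5 and Ndufb8 differed by -0.03 and -0.04, the second with a mean above 13. Ndufb11, below the filter, stood at 6.41 ± 0.12 in KO and 6.41 ± 0.37 in WT (SD, n = 4 each).

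Group c is a pair of small membrane-arm subunits. Ndufc1 had 12.82, 12.79, 13.10 and 12.70 in KO, against 12.81, 12.63, 12.85 and 13.07 in WT, and the ranges largely coincided. The difference was 0.02 (95% interval -0.33 to 0.36). Ndufc2, below the filter, stood at 6.42 ± 0.33 in KO and 6.43 ± 0.49 in WT (SD, n = 4 each).

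Groups s and v include the catalytic core of the matrix arm, and the differences of their tested genes lay between -0.17 and 0.03. The 4 measured core genes were Ndufs3, Ndufs7, Ndufs8 and Ndufv1, of 7 nuclear core genes, the remainder not analysed here. Ndufs7, which carries the last iron-sulfur cluster before ubiquinone, had 12.52, 12.02, 12.92 and 12.55 in KO, against 12.60, 12.59, 12.77 and 12.74 in WT. KO scattered more than WT (SD 0.37 in KO and 0.09 in WT), with 1 KO array above and 3 KO arrays below every WT value. Its difference of -0.17 had an adjusted p of 0.80, and the difference was -0.01 without KO replicate 2 and -0.31 without KO replicate 3. Ndufs8, which carries a pair of iron-sulfur clusters, had 12.22, 11.96, 12.37 and 12.20 in KO, against 12.27, 11.90, 12.33 and 12.49 in WT. Replicate 2 was the lowest array of each genotype, and the difference was -0.06. Ndufv1, which binds NADH and the flavin cofactor, had 12.73, 12.87, 12.81 and 13.08 in KO, against 12.95, 12.83, 12.93 and 12.93 in WT. The KO range enclosed the WT range, and the difference was -0.04 (95% interval -0.34 to 0.26). Ndufv3, an accessory subunit beside Ndufv1, had 12.54, 12.38, 12.85 and 12.63 in KO, against 12.56, 12.38, 12.76 and 12.65 in WT. Its difference was 0.01 (95% interval -0.34 to 0.36), and the lowest value of each genotype was the same to the second decimal. Ndufs4, an accessory subunit of the NADH-binding module whose loss in mice gives a complex I deficiency, stood at 12.77 ± 0.06 in KO and 12.76 ± 0.13 in WT (SD, n = 4 each).

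The assembly factors scattered widely and held both signs, with a median SD within genotype of 0.36 over 4 tested genes, beside 0.18 over the 31 Nduf genes. Their levels were lower, from 9.78 to 10.22, beside a median level of 12.23 over the 31 genes. Over all tested probes the median SD was 0.25 at levels from 10 to 12 and 0.32 below 10. Among the 4 tested, Ndufaf1 and Ndufaf3 had higher means in KO and Ndufaf4 and Ndufaf5 lower ones. Ndufaf1, a chaperone of the membrane arm, had 10.18, 9.81, 10.56 and 10.41 in KO, against 9.87, 9.80, 10.04 and 9.75 in WT. KO replicates 1, 3 and 4 exceeded every WT value, while KO replicate 2 lay within the WT range. The means were 10.24 ± 0.33 in KO and 9.86 ± 0.13 in WT (SD, n = 4 each), a difference of 0.38 (SE 0.18, 1.30-fold), with a limma adjusted p of 0.55. Without KO replicate 2 it was 0.52, with an adjusted p of 0.21. Ndufaf3 and Ndufaf4, which act together on the quinone-binding module, differed by 0.18 and -0.15. In Ndufaf4, KO replicate 2 was the highest of the 8 arrays at 10.59, and the other KO values were 9.45, 9.66 and 9.70. Ndufaf5, which hydroxylates an arginine of Ndufs7, had the largest spread over the 8 arrays: 9.62, 9.63, 10.11 and 9.12 in KO, against 10.16, 9.09, 10.09 and 10.44 in WT. The lowest value of all came from WT replicate 2 and the difference was -0.32 (adjusted p 0.76), against -0.61 without that array, -0.49 without KO replicate 3, -0.15 without KO replicate 4 and -0.16 without WT replicate 4.

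Ndufaf7, a methyltransferase needed for complex I assembly, showed the largest difference of all Nduf genes but at a low level. Its brighter probe had 6.77, 6.13, 6.59 and 6.31 in KO, against 5.98, 5.39, 5.78 and 5.52 in WT, every value below the array median of 6.93. The genotypes did not overlap, which was so for 6.55 percent of the 4534 probes below the filter. The means were 6.45 ± 0.28 in KO and 5.66 ± 0.26 in WT (SD, n = 4 each), a difference of 0.79. The dimmer probe went the other way, at 4.32 ± 0.34 in KO and 4.58 ± 0.12 in WT, a difference of -0.26. In a limma fit with no filter the brighter probe had an adjusted p of 0.28 and the dimmer one of 0.67.

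**Figure D2:**
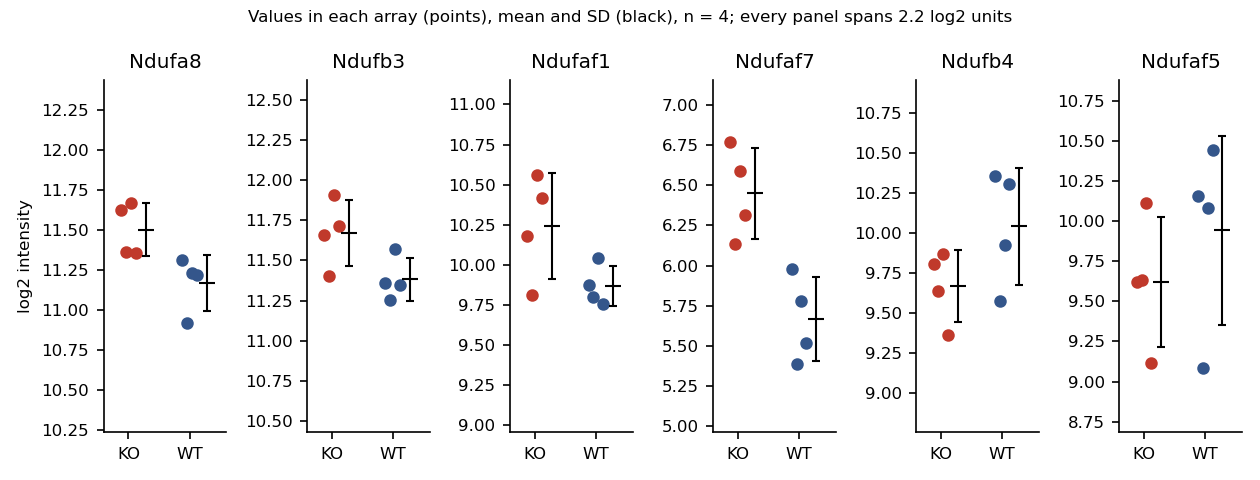
Log2 intensity (y axis, each panel spanning the same width of 2.2 units) in the 4 KO and 4 WT arrays (x axis, points, KO left) of Ndufa8, Ndufb3, Ndufaf1, Ndufaf7, Ndufb4 and Ndufaf5, with the mean and SD in black. Only Ndufa8 and Ndufaf7 have no overlap between genotypes, and the lowest WT point of Ndufb4, at 9.58, and of Ndufaf5, at 9.09, is replicate 2.

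Ndufaf7 was 1 of 5 genes with more than 1 probe, and these differed in how far their probes went together. The 3 probes of Ndufs4 differed by 0.02, -0.03 and 0.03, close to 0 in each. The probes of Ndufa5, a subunit of the quinone-binding module, differed by 0.02 and -0.05. For Ndufs3, a core subunit of the quinone-binding module, the brighter probe had 12.79, 12.27, 12.82 and 12.30 in KO, against 12.54, 12.34, 12.55 and 12.61 in WT, and differed by 0.03. Its dimmer probe had 9.57, 9.45, 9.72 and 9.44 in KO, against 9.50, 8.65, 9.05 and 9.45 in WT, and differed by 0.38 (adjusted p 0.58). The 2 probes of Ndufs3 thus gave unlike sizes, and the WT value of 8.65 again came from replicate 2. Both probes of Ndufaf5 were lower in KO, by -0.32 and -0.20, and lowest in WT replicate 2.

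Ordered by place in the enzyme instead of letter, the modules also differed little. The NADH-oxidising module had 7 tested genes, with 2 higher and 5 lower in KO and a median difference of -0.06. In the quinone-binding module 3 of 5 genes were higher, with a median of 0.02, and in the membrane arm 4 of 14, with a median of -0.08. Each module held both signs, and 0 genes of any module passed.

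Variation between arrays was larger than variation between genotypes and was shared by many members. As the mean over the 31 tested genes of log2 intensity minus the WT mean, the Nduf level was -0.04, -0.17, 0.13 and -0.09 in KO replicates 1 to 4, against 0.09, -0.21, 0.00 and 0.11 in WT replicates 1 to 4. The difference was -0.04 (KO SD 0.13, WT SD 0.15, n = 4), so both genotypes spanned nearly the same range. Without WT replicate 2 it was -0.11, without KO replicate 3 it was -0.10, and without KO replicate 2 it was 0.00037. The same mean over all 3822 tested genes stayed between -0.03 and -0.01 in KO and between -0.01 and 0.01 in WT. Quantile normalization holds that mean nearly constant, so it does not show how far other gene groups of like size vary.

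WT replicate 2 was the lowest WT array in 25 of the 31 Nduf genes (80.6 percent), while it was lowest in 34.3 percent of all tested genes. It was also the highest WT array in 31.7 percent of all tested genes, beside 6.45 percent of the Nduf genes. With array weights, which count scattered arrays for less, WT replicate 2 and KO replicate 2 had the lowest weights, 0.44 and 0.58. KO replicate 3 was the highest KO array in 23 (74.2 percent, beside 27.7 percent of all tested genes), and KO replicate 2 the lowest in 18 (58.1 percent, beside 28.8 percent). WT replicate 2 was the lowest WT array in 8 of 8 tested genes of group b and 4 of 4 of group s, with group means of -0.37 and -0.18 in that array. Group a had WT replicate 2 lowest in 8 of 12, while in 2 genes it was the highest WT array, Ndufa10 at 12.87 and Ndufa9 at 12.31. These counts describe arrays, and 1 array low in many genes is a single observation. Slow fibre markers did not follow the same order. Their list means over 7 genes were 0.21, 0.46, 0.14 and 0.17 in KO, against -0.20, 0.07, -0.07 and 0.20 in WT. Of the 7, Myh7 and Tnni1 lay below the filter. Over the 5 tested genes the means were -0.04, 0.41, -0.20 and -0.10 in KO, against -0.15, -0.03, -0.08 and 0.26 in WT. Single markers went opposite ways, with Atp2a2 differing by 1.09 and Myl3 by -1.17. Fast fibre markers had 0.06, 0.13, 0.14 and 0.10 in KO, against 0.05, -0.05, 0.02 and -0.01 in WT, so KO replicate 3 was the highest KO array and WT replicate 2 the lowest WT array there too. Of 5 immune cell markers 2 were measured, with means of -0.29, 0.86, 1.58 and 0.88 in KO, against -0.38, -0.10, 0.35 and 0.13 in WT, and KO replicate 3 was again the highest. Red blood cell markers, 3 of 7 measured, had means of -0.62, -0.05, -0.58 and -0.20 in KO, against 0.13, -0.41, -0.30 and 0.58 in WT. The 1 measured satellite cell marker of 3 had 0.01, -0.46, -0.18 and -0.13 in KO, against 0.12, -0.40, 0.09 and 0.19 in WT. In both, WT replicate 2 was the lowest and WT replicate 4 the highest WT array, as in the Nduf mean. The KO arrays did not share that likeness throughout. In the Nduf mean KO replicate 3 was the highest and KO replicate 2 the lowest. KO replicate 2 was the highest KO array for red blood cells. The satellite cell marker had KO replicate 1 highest and KO replicate 2 lowest. Over all measured genes, markers of endothelium (3 of 4 measured), fibroblasts (2 of 5) and nerve (2 of 4) went otherwise among the WT arrays. In each of them WT replicate 1 was the lowest and WT replicate 3 the highest WT array. Their means in KO replicate 3 were -0.60, -0.09 and -1.47, the lowest KO value for endothelium and nerve. For nerve the WT order depended on a gene below the filter. The 1 tested nerve marker alone had -0.94, 0.32, -1.43 and -1.38 in KO, against 0.10, -0.63, 0.20 and 0.33 in WT. There WT replicate 2 was the lowest and WT replicate 4 the highest WT array, as in the Nduf mean. The part of fibre type and of these other cells in the array pattern was not tested.

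**Figure D3:**
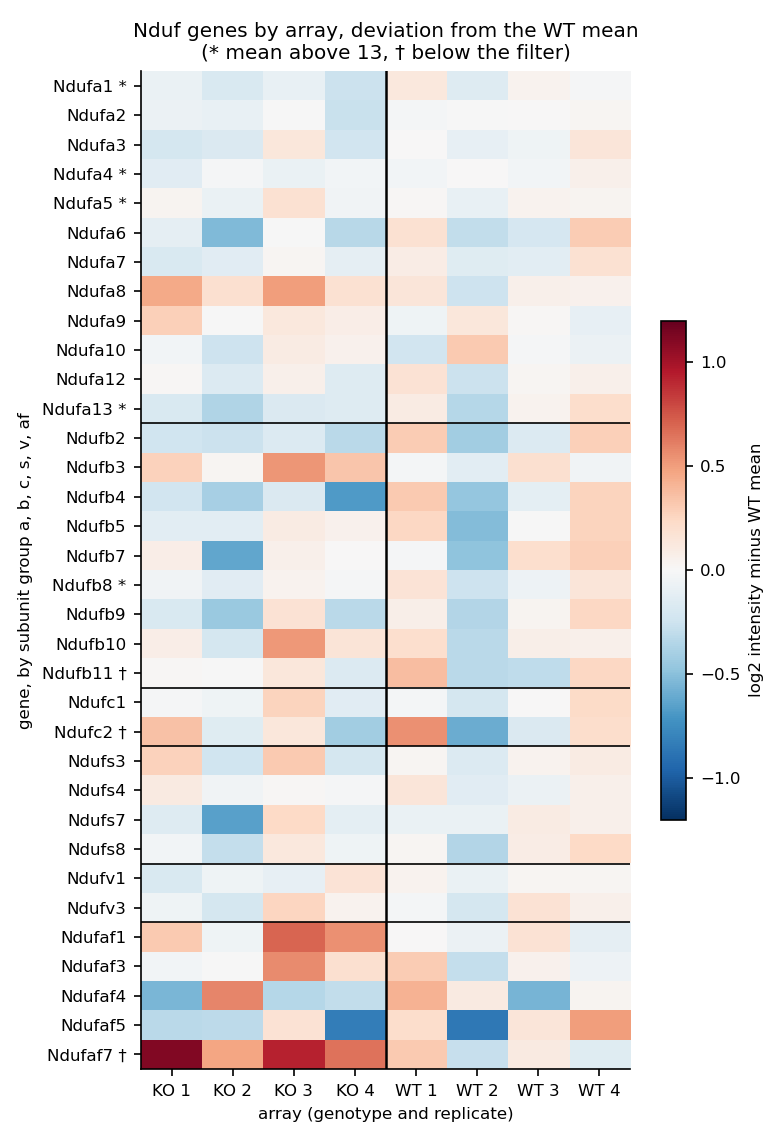
Log2 intensity minus the WT mean of each gene (colour scale) for all 34 Nduf genes (rows, by subunit group) in the 8 arrays (columns, KO left of WT). WT replicate 2 is blue in most rows and KO replicate 3 red in many, whereas Ndufa8 and Ndufaf7 are red in all 4 KO columns.

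**Figure D4:**
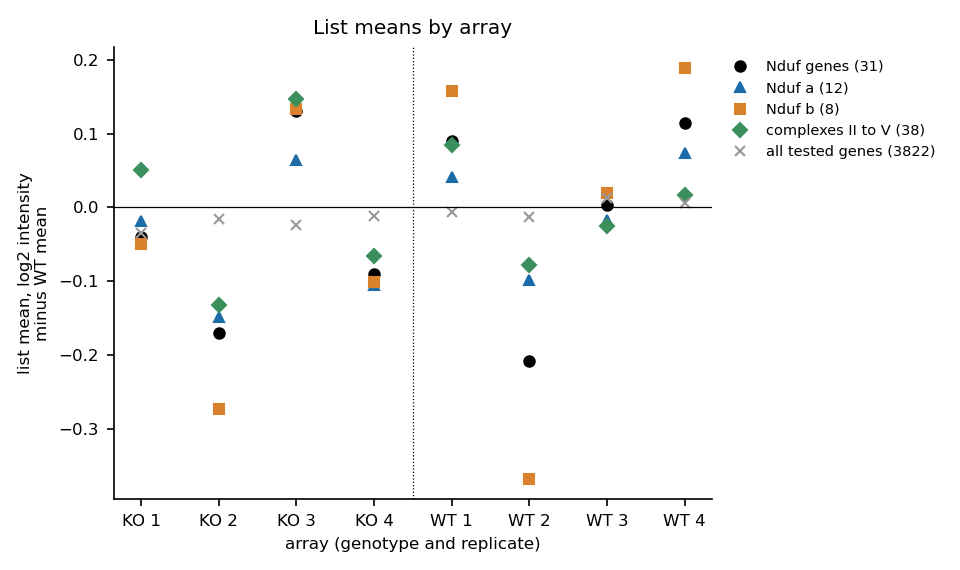
Mean of log2 intensity minus the WT mean (y axis) in each array (x axis, KO left of WT) for the 31 tested Nduf genes, their groups a and b, 38 genes of complexes II to V and all 3822 tested genes. The Nduf mean lies between -0.17 and 0.13 in KO and between -0.21 and 0.11 in WT, and group b reaches -0.37 in WT replicate 2. Quantile normalization holds the mean over all tested genes nearly constant.

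The subunits of complexes II to V, the other members of the respiratory chain, were used for comparison. Their mean in the same terms was 0.05, -0.13, 0.15 and -0.07 in KO, against 0.09, -0.08, -0.03 and 0.02 in WT, over 38 tested genes. KO replicates 2 and 3 were thus low and high in both lists. WT replicate 2 had the lowest WT mean in both as well, at -0.08 here and -0.21 for Nduf. It was lowest in 16 of 38 genes of complexes II to V (42.1 percent). That stood beside 80.6 percent of the Nduf genes and 34.3 percent of all tested genes. Their median difference was -0.04, with 17 genes higher and 21 lower in KO and 0 past the threshold. More of them lay near the ceiling, 20 of 38 with a mean above 13, beside 5 of 31 tested Nduf genes. The difference between the 2 lists was not tested.

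Spread fell with level, which bears on how small a difference could be seen. The median SD within genotype was 0.10 over 5 Nduf probes with a mean above 13, 0.15 over 15 probes from 12 to 13, 0.26 over 8 probes from 10 to 12 and 0.33 over 8 probes below 10. Over all tested probes the same bands gave 0.11, 0.21, 0.25 and 0.32. The differences between genotypes widened in the same order, from a range of -0.22 to 0.02 above 13 to a range of -0.37 to 0.38 below 10. The near-ceiling members were Ndufa1, Ndufa4, Ndufa5, Ndufa13 and Ndufb8. Among them Ndufa1, Ndufa5, Ndufa13 and Ndufb8 were lower in WT replicate 2 than in any other WT array. Their values there were 13.08, 13.09, 13.56 and 13.54, so arrays could still be told apart at this level. In Ndufa4 WT replicate 2, at 13.93, was not the lowest WT array.

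**Figure D5:**
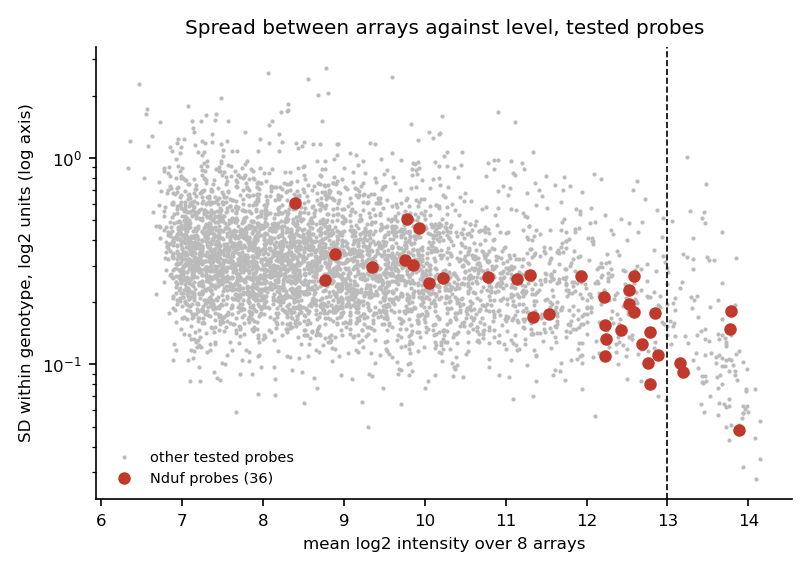
SD within genotype (y axis, log scale, log2 units) against mean log2 intensity over the 8 arrays (x axis) for the 36 tested Nduf probes (red) and all other tested probes (grey), with a dashed line at 13. Nduf probes above 13 have a median SD of 0.10 and those below 10 of 0.33.

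Other genes of complex I and its assembly gave 11 genes with a probe, of a list of 22, and 8 were tested. Of the 8, 6 had a higher mean in KO and 2 a lower one, with a median difference of 0.03 and 0 past the threshold. Bcs1l, a chaperone chiefly of complex III, had 8.51, 8.64, 9.12 and 8.44 in KO, against 8.55, 7.66, 8.57 and 8.60 in WT. Its difference of 0.33 (adjusted p 0.68) was 0.10 without WT replicate 2, the low WT value. Dmac2 and Dmac1, factors for the distal membrane arm, differed by 0.16 (adjusted p 0.80) and -0.09 (adjusted p 0.87). Dmac2 was at 0.040 without KO replicate 3 and 0.086 without WT replicate 2, and Dmac1 at -0.012 without WT replicate 2. Acad9, Ecsit and Tmem126b form a complex with Ndufaf1, and they differed by 0.01, 0.06 and 0.01, beside 0.38 for Ndufaf1. Tmem126a differed by -0.04 and Lyrm2 by 0.15. Foxred1, an assembly factor named after its values were seen, lay below the filter, and its 3 probes differed by 0.58, 0.55 and 0.56. Its brightest probe was 5.51, 5.45, 5.39 and 5.83 in KO, against 5.27, 5.18, 4.91 and 4.50 in WT. These values did not overlap, as was so for 6.55 percent of probes below the filter. The limma fit with no filter gave it an adjusted p of 0.38. Both dimmer probes of Foxred1 overlapped between genotypes. Tmem186 and Aifm1, also below the filter, differed by -0.04 and 0.18.

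Among regulators of mitochondrial gene expression, of 8 genes with a probe 4 were tested, and those 4, Ppargc1a, Tfam, Tfb1m and Esrra, had higher means in KO by 0.16, 0.09, 0.18 and 0.10, with 0 past the threshold. Nrf1 and Gabpa, whose motifs were searched above, lay below the filter and differed by -0.16 and -0.12. Gabpb1, the partner subunit of Gabpa, and Ppargc1b, a coactivator related to Ppargc1a, also lay below it and differed by -0.28 and 0.60. Esrra, an orphan nuclear receptor that acts on respiratory genes, had 8.71, 8.79, 9.06 and 8.17 in KO, against 8.72, 7.57, 9.01 and 9.05 in WT. Its lowest value, like those of many Nduf genes, came from WT replicate 2. The other tested regulators went otherwise. For Tfb1m WT replicate 2 was the highest WT array, at 7.85. The lowest WT array was replicate 4 for Ppargc1a, at 7.32. For Tfam it was replicate 3, at 8.17, beside 8.18 in WT replicate 2.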

How the data were processed

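EDL RNA was amplified to biotin-labelled cRNA and hybridised to Illumina arrays, according to the protocols in the labels. The authors deposited log2 intensities, 1 column per sample. Their base was judged from the range, and their quantile normalization from the sorted values, which are the same in all 8 columns. No label names the background correction or a probe filter. Quantile normalization hides a shift of all transcripts. A second table with 8 columns named for no labelled sample was not used. Of 9232 probes, 8403 had 1 gene symbol in the platform annotation, 3 several and 826 none. All 40 Nduf probes matched GRCm38.p6 RefSeq by Entrez number, with 0 symbols changed. Promoters are from RefSeq.

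Genotypes were compared with limma 3.58.1 in R 4.3.3 (two-sided moderated test from lmFit and eBayes, no trend). P-values were adjusted by Benjamini-Hochberg across the tested probes, and 0.05 was the threshold. The procedure was tested on simulated data. The number of arrays limits precision: the median SE of a difference was 0.21 over all tested probes and 0.16 over Nduf probes. Values in every array were given for the 2 tested genes of smallest p in each subunit group, genes without overlap, genes with several probes (of these, Ndufa5 and Ndufs4 by differences), the gene of largest spread and 3 complex I genes outside the Nduf symbols (Dmac1 and Dmac2 by differences). Members and lists were chosen with earlier results of these data known. Replicate numbers were not used as pairs: deviations of same-numbered arrays correlated at -0.28, -0.15, 0.24 and -0.34 across probes.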

Additional observations from a re-analysis of the deposited data

Results flagged for a closer look

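Among 48 sets of 4 arrays (the 18 named genes and 6 list means in each genotype), 4 held a value set apart from the other 3 by more than Dixon's 95% critical value, where chance flags about 1 set in 20. Ndufa13 was 13.54 in KO replicate 2, below the other KO arrays at 13.72 to 13.75. Ndufv1 was 12.83 in WT replicate 2, below the other WT arrays at 12.93 to 12.95. Bcs1l was 7.66 in WT replicate 2, with the other WT arrays at 8.55 to 8.60. Dmac1 was 11.11 in KO replicate 4, with the other KO arrays at 11.21 to 11.23. For Ndufa13, Ndufv1 and Dmac1 the gap was under 0.2 log2 units.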

How the results depend on the processing

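The count of Nduf genes past the threshold was 0 under all 18 alternatives. The mean difference of the Nduf list and of each subunit group moved by less than 1 SD between arrays, a bound that says little. Leaving out 1 of 4 arrays cannot move a mean by that much, and settings that alter only the test leave it unchanged. With 1 array left out, groups a and b stayed below 0. Groups c, s, v and af changed sign, over -0.068 to 0.092, -0.12 to 0.041, -0.063 to 0.023 and -0.072 to 0.098. The count of all probes past the threshold was 0, but 4 with array weights, 0 to 35 when 1 array was left out (35 without KO replicate 2) and 114 without both replicates numbered 2, a setting chosen after seeing the data. With the replicate block the Nduf mean difference was unchanged at -0.04 and the adjusted p of Ndufa8 was 0.58; the block changed no call. Signs of small differences turned. With array weights Ndufc1 was -0.049, Ndufv3 -0.035 and Ndufa5 -0.00059. Ndufa5 was -0.014 as the mean of its probes, and without both replicates numbered 2 Ndufc1 was -0.033 and Ndufs4 -0.011. Leaving out 1 array gave ranges of -0.068 to 0.092 for Ndufc1, -0.18 to 0.020 for Ndufs8, -0.11 to 0.0057 for Ndufv1, -0.071 to 0.085 for Ndufv3, -0.030 to 0.056 for Ndufa5, -0.059 to 0.13 for Ndufs3 and -0.029 to 0.067 for Ndufs4. The Nduf mean difference then ran from -0.11 to 0.00037. As the mean of its 2 probes Ndufaf7 differed by 0.26. The cause of these changes was not tested.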
